A study of Mus musculus with 2 samples.

Results

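The proteasome subunit genes were described in mononuclear cells of mouse plantaris muscle. Members were the genes whose symbol is Psma, Psmb, Psmc, Psmd, Psme, Psmf or Psmg followed by a number and that had at least 25 UMIs (unique molecular identifiers, each standing for 1 captured transcript end) over both libraries. Of 32285 gene IDs, 48 matched the names and 47 reached that sum. Psma8, the testis-type alpha subunit, lay just inside with 66 UMIs (12 sham and 54 tenotomy), and Psmb11, the subunit of the thymus proteasome, just outside with 15 (7 and 8).

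In the study, the plantaris of 1 side of 5 male C57BL/6J mice aged 12 weeks was tenotomised, and the contralateral plantaris served as sham control. On day 4 the 5 muscles of each group were pooled, digested with 0.2% type II collagenase for 90 min, and living mononuclear cells, positive for Calcein AM and negative for propidium iodide, were sorted for 10x Genomics single-cell RNA sequencing. The series title speaks of mechanically loaded muscle, while the design text gives tenotomy of the plantaris itself as the operation. Each group was therefore 1 library of 5 pooled mice, both groups came from the same mice, and muscle fibres were not in the sort.

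The proteasome degrades proteins tagged with ubiquitin. Its 20S core is a barrel of 4 stacked rings, outer rings of alpha subunits and inner rings of beta subunits, in which Psmb6 (β1), Psmb7 (β2) and Psmb5 (β5) carry the catalytic sites. The 19S cap has a base, whose ATPases Psmc1 to Psmc6 unfold the substrate, and a lid, whose subunit Psmd14 removes the ubiquitin. In the immunoproteasome, which is induced by interferon gamma and is the usual form in many immune cells, Psmb9 (β1i), Psmb10 (β2i) and Psmb8 (β5i) take the place of the constitutive catalytic subunits, and the peptides it makes feed antigen presentation on MHC class I. The 47 members comprised 7 alpha ring subunits, Psma8, 4 noncatalytic and 3 catalytic constitutive beta subunits, 3 immunoproteasome subunits, 6 ATPases, 3 other base subunits, 8 lid subunits and 12 accessory proteins (assembly chaperones, activators and an inhibitor). The 31 constitutive subunits of the 20S core and 19S cap were summarised as 1 group.

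The start-site regions of Psmb5, Psmb6, Psmb8 and Psmb9 are shown as examples of constitutive and immunoproteasome catalytic subunits. Whether motifs go with the levels described below was not tested. Sequences are RefSeq's for build GRCm38.p6, written 5′ to 3′ on the gene's strand, and capitals mark a match to 1 of 4 motifs searched on both strands in the 250 bases before the start. Psmb5 (chr14:54618023-54618245, minus strand, 250 to 28 bases before the start) and Psmb6 (chr11:70525107-70525356, plus strand, 250 to 1 bases before the start) each hold the core of an antioxidant response element, TGACNNNGC, which begins 47 bases before the start in Psmb5 and 9 before it in Psmb6. Psmb8 (chr17:34198087-34198116, plus strand) holds a gamma-activated sequence, TTCNNNGAA, 97 bases before its start. Psmb9 (chr17:34187331-34187360, minus strand) holds a CCAAT box on the opposite strand, so that it reads ATTGG, 8 bases before its start. For the latter genes only 30 bases are shown, because exons of Psmb8, Psmb9 and Tap1 transcripts with other starts cover the window.
Psmb5: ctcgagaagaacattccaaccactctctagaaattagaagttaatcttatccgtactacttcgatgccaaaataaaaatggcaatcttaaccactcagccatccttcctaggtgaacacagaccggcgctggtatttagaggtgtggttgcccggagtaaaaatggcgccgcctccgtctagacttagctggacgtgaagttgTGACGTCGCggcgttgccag
Psmb6: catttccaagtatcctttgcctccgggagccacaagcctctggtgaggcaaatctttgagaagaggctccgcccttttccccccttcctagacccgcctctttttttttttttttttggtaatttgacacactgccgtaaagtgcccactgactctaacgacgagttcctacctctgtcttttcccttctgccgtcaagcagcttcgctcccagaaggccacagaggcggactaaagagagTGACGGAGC
Psmb8: gtcctccgctgTTCCCAGAAgatgcccccc
Psmb9: cctgcaccgcgcgcagccgctgATTGGaaa
Promoters were matched by symbol for 39 of the 47 members (42 windows). The antioxidant element core was in 5 of these genes (Psmb5, Psmb6, Psmc6, Psmd12 and Psmd9). That was 11.9% of member windows, beside 10.2% of all 32851 promoter windows of the same length. The gamma-activated sequence was in Psmb8 and Psmg1, 4.76% of member windows and 7.02% of all windows. The CCAAT box was in 13 members, 31.0% of member windows and 33.8% of all windows. The interferon-stimulated response element was searched as GAAA, any 2 bases and GAAA again. It was in Psmb3, Psmd4 and Psmd9, 7.14% of member windows and 2.98% of all windows. No match to the 4 motifs was found for Psmb7 or Psmb10. Psmb10 had a window, while Psmb7 may be among the members without a window. A match is a run of letters, not a measured binding site. Psmb9 and Psmb8 lie near each other on chromosome 17 (34181987 to 34187764 and 34197721 to 34201454 in the mm10 gene annotation), while Psmb10 lies on chromosome 8 (105935735 to 105938444).

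The deposited tables held 8463 sham and 11950 tenotomy barcodes with 47781353 and 94556283 UMIs. After filtering, 7548 sham cells (median 4851 UMIs) and 10917 tenotomy cells (median 5859 UMIs) remained, and 29 barcodes occurred in both libraries. Cells were assigned by markers to 13 classes, of which 7 had at least 50 cells in each library. These were mesenchymal progenitor-like (1987 sham and 1759 tenotomy cells), muscle stem cell-like (429 and 425), blood endothelial-like (3301 and 1532), monocyte/macrophage-like (376 and 4418), tenocyte-like (377 and 203), pericyte or smooth muscle-like (139 and 88) and neutrophil or granulocyte precursor-like cells (70 and 590). No class had markers of another class among its 10 leading genes by fold. The tenotomy endothelial-like cells had none of their own there either, and the sham ones had 1. With 1 library a group there is no test: treatment and library cannot be told apart, and every 95% interval below covers counting error only. Levels are the CPM of a class (its UMIs of a gene scaled to a total of 1000000), a fold is tenotomy over sham on that scale, and a member counts as higher or lower at 1.5-fold, among members with at least 25 UMIs in the class. Shares of all measured genes were computed in this setting only, so counts from other settings have no such share beside them.

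In mesenchymal progenitor-like cells, the fibroblast-like cells of the muscle stroma, 29 of the 31 constitutive subunits were at least 1.5-fold higher after tenotomy and none was 1.5-fold lower. Of all 13800 measured genes in these cells, 25.1% were that much higher and 30.6% that much lower, and of genes within the level range of the constitutive subunits 28.6% were higher. Summed over the 31 genes, the level was 2792 CPM in sham against 5472 in tenotomy, a 1.96-fold difference (95% interval 1.94 to 1.98). The median fold of the 31 was 1.97 and that of all measured genes 0.951. Psma7, an alpha ring subunit, went from 140 CPM in sham to 358 CPM in tenotomy, the highest fold at 2.56 (2.44 to 2.68). Next were Psma4, also of the alpha ring, with a fold of 2.53 and Psmb3, a structural beta subunit, with 2.52. The lowest folds belonged to Psmd4, a ubiquitin receptor of the cap (1.53), to the lid subunit Psmd11 (1.19) and to the ATPase Psmc6 (1.17). All 7 alpha ring genes, all 7 constitutive beta genes, 5 of 6 ATPases, 3 of 3 other base genes and 7 of 8 lid genes passed 1.5-fold, so the difference ran through every part of the particle.

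The catalytic subunits of the same cells did not move as a block. Psmb5, the chymotrypsin-like β5, was at 88.8 CPM in sham against 207 in tenotomy (2.33-fold, 2.20 to 2.47), Psmb6 at 130 and 247 CPM (1.89-fold) and Psmb7 at 67.4 and 111 CPM (1.65-fold). Of their immunoproteasome counterparts, Psmb8 was at 42.2 and 43.1 CPM (1.02-fold, 0.931 to 1.12), Psmb9 at 12.9 and 10.6 CPM (0.819-fold, 0.685 to 0.980) and Psmb10 at 37.5 and 46.7 CPM (1.25-fold, 1.13 to 1.37). Thus none of the 3 immunoproteasome genes reached 1.5-fold in either direction, next to 3 of 3 constitutive catalytic genes. The tenotomy cells of this class held more UMIs, with a median of 14112 a cell against 8309, and 36.7% against 1.11% of sham cells carried at least 2 UMIs of 12 cell cycle genes. Without the cells with 2 such UMIs, the number of constitutive genes at least 1.5-fold higher was 21 of 31, with a median fold of 1.58, and in cells thinned to 1000 UMIs it was 25.

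**Figure D1:**
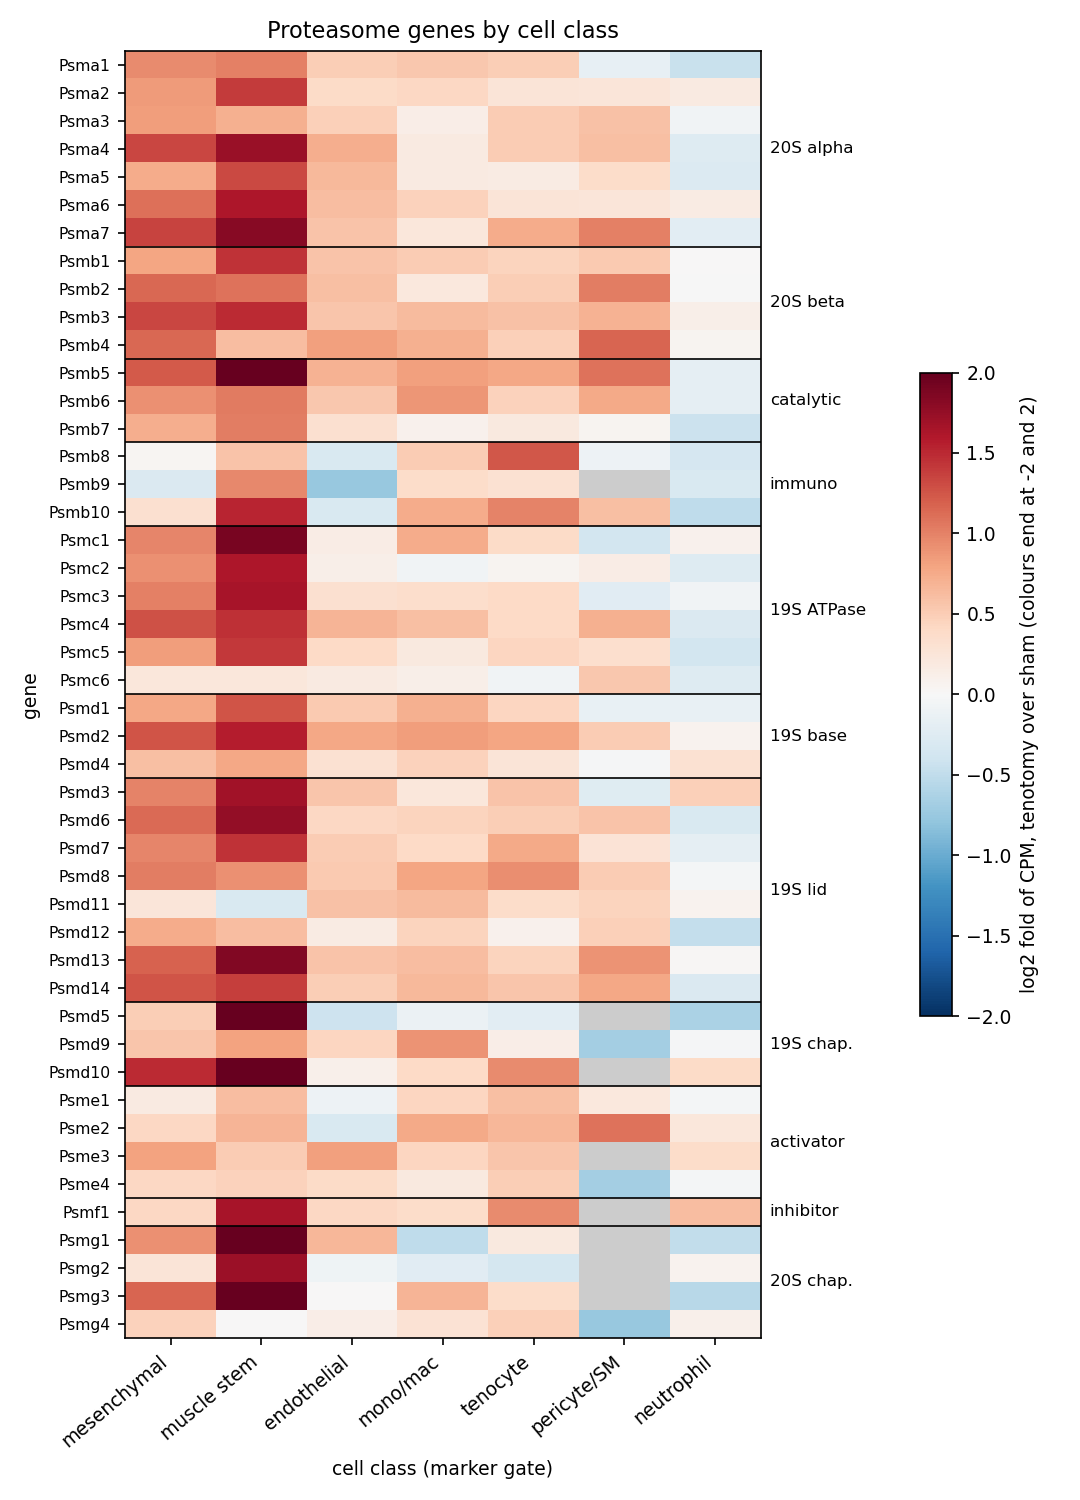
Log2 fold of CPM (tenotomy over sham) for 46 proteasome members (rows, by role; Psma8 is left out) in the 7 compared cell classes (columns), with 1 library a group, colours ending at -2 and 2 and grey for fewer than 25 UMIs. The columns of muscle stem cell-like and mesenchymal progenitor-like cells are the darkest over the constitutive 20S and 19S rows, the neutrophil-like column is pale, and Psmb8, Psmb9 and Psmb10 are below 0 in endothelial-like cells.

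Muscle stem cell-like cells, gated on markers of the precursors that rebuild fibres, did not hold the same states in both libraries. Their 10 leading genes by fold included Calcr, Pax7, Myf5, Myod1 and Cdh15 in sham, and Myf5 and Pax7 beside the differentiation and fusion genes Myh3, Tnni1, Tnnt2, Ttn, Mymk and Mymx in tenotomy. In tenotomy cells thinned to 1000 UMIs, the 96 of 424 with a UMI of Myog, Mymk, Mymx, Actc1 or Tnnt2 had 1.20 times the constitutive subunit level of the others (1.10 to 1.30). Of the 31 constitutive subunits 29 were 1.5-fold higher or more, and 24 were at least 2-fold higher, none 1.5-fold lower, where 47.3% and 34.7% of 10923 measured genes were that much higher and 18.9% were 1.5-fold lower. Within the level range of the constitutive genes 38.4% of genes were 1.5-fold higher. The median fold of all measured genes was 1.41 in this class, though 18.9% of them were at least 1.5-fold lower. Genes counted as measured by their UMIs summed over both libraries, and the class held 2949231 UMIs in sham against 7563017 in tenotomy. Whether this rule raised the median of 1.41 was not tested. Relative to that median, the median fold of the 31 was 1.89, beside 2.08 in mesenchymal progenitor-like cells on the same scale. There 21 of the 31 were at least 1.5-fold higher, and 29 in mesenchymal progenitor-like cells. The share of all measured genes past 1.5-fold on this scale was not computed, so these counts do not rank the classes. The summed level was 3388 CPM in sham against 7644 in tenotomy, 2.26-fold (2.21 to 2.30). Psmb5 had the highest fold, with 81.0 CPM in sham against 335 in tenotomy (4.14-fold, 3.62 to 4.74). The ATPase Psmc1 followed with 31.5 and 118 CPM (3.74-fold) and the lid subunit Psmd13 with 44.1 and 160 CPM (3.62-fold). At the other end, Psmb4 was at 1.53-fold and Psmc6 at 1.17-fold. Psmd11 alone was lower in tenotomy, with 211 CPM in sham against 170 in tenotomy (0.806-fold, 0.732 to 0.889). Psmb6 was at 199 and 410 CPM (2.06-fold) and Psmb7 at 91.2 and 185 CPM (2.03-fold).

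The immunoproteasome genes were low in muscle stem cell-like cells, and 2 of the 3 were at least 1.5-fold higher after tenotomy, where 47.3% of all measured genes were. Psmb8 had 18.0 CPM in sham against 26.7 in tenotomy (1.49-fold, 1.09 to 2.05), Psmb9 5.43 and 10.6 CPM (1.95-fold, 1.13 to 3.57) and Psmb10 17.3 and 49.5 CPM (2.86-fold, 2.13 to 3.91). Relative to the median fold of all genes, the folds were 1.05 for Psmb8, 1.38 for Psmb9 and 2.02 for Psmb10. Thinning every cell to 1000 UMIs left Psmb9 without a UMI in tenotomy, so its direction rests on few counts. In this class 54.8% of tenotomy cells against 1.40% of sham cells carried at least 2 cell cycle UMIs, and the median depth was 15000 against 6085 UMIs. Without those cells, 27 of the 31 constitutive subunits were at least 1.5-fold higher.

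Blood endothelial-like cells, which line the capillaries, showed smaller differences in the constitutive genes and the opposite direction in the immunoproteasome genes. Their 10 leading genes by fold included Timp4 and C1qtnf9 in both libraries. Car4, Sox17 and Selp were among them in sham only, and Sele and Gpihbp1 in tenotomy only. The class went from 43.7% to 14.0% of the kept cells, and whether the 2 libraries held like mixtures was not tested. All 31 constitutive subunits were above 1-fold, 8 of them at least 1.5-fold higher and none 1.5-fold lower, beside 19.4% and 19.1% of 11855 measured genes (15.6% higher within their level range). The summed level was 3581 CPM in sham against 5100 in tenotomy (1.42-fold, 1.40 to 1.45), and the median fold was 1.44 where that of all genes was 0.987. Psmb4 had the highest fold (1.77), then Psmd2, the large scaffold of the base (1.71), and Psma4 (1.65). The lowest were the lid subunit Psmd12 (1.12), Psmc1 (1.11) and Psmc2 (1.08). Alpha ring genes passed 1.5-fold in 3 of 7 cases, ATPases in 1 of 6 and lid genes in 0 of 8. The count of 8 varied with the setting, with 3 when each cell's CPM was averaged, 4 without cells with 2 cell cycle UMIs (5.74% of tenotomy and 0.636% of sham cells) and 20 when mitochondrial and ribosomal protein genes were left out of the total. The last setting raised every fold of the class by the same factor, to a constitutive median of 1.55. The share of all measured genes past 1.5-fold was not computed in these settings.

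In sham endothelial-like cells, Psmb8 was the most abundant of the 6 catalytic members. It was at 239 CPM in sham against 195 in tenotomy (0.813-fold, 0.760 to 0.869). Psmb9 was at 92.9 and 54.7 CPM (0.589-fold, 0.521 to 0.665) and was the one member of the 47 that was at least 1.5-fold lower in this class. Psmb10 was at 125 and 101 CPM (0.810-fold, 0.737 to 0.889). The constitutive partners lay higher in tenotomy: Psmb5 at 119 and 194 CPM (1.62-fold), Psmb6 at 174 and 253 CPM (1.45-fold) and Psmb7 at 103 and 129 CPM (1.25-fold). Within 1 class, then, the summed immunoproteasome level was lower (457 and 350 CPM, 0.767-fold, 0.729 to 0.805) while the constitutive sum was higher.

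Monocyte/macrophage-like cells had 12 of the 31 constitutive subunits at least 1.5-fold higher and none 1.5-fold lower, beside 15.8% and 25.5% of 11791 measured genes (16.2% higher within their level range). The sum was 3319 CPM in sham against 4548 in tenotomy (1.37-fold, 1.34 to 1.40), with a median fold of 1.37 where all genes had 0.958. With at most 5% mitochondrial UMIs a cell instead of 10%, the count was 7. The folds differed by role: 0 of 7 alpha ring genes passed 1.5-fold (median 1.17), as did 2 of 3 constitutive catalytic, 2 of 3 non-ATPase base and 4 of 8 lid genes. Psmb6 was highest, at 139 CPM in sham against 258 in tenotomy (1.85-fold, 1.66 to 2.06), then Psmd2 (1.78) and Psmb5 at 107 and 189 CPM (1.76-fold). The lowest were Psmc6 (1.09), Psmb7 at 98.7 and 105 CPM (1.06-fold, 0.934 to 1.21) and Psmc2 (0.954). Here the immunoproteasome genes were higher after tenotomy: Psmb8 at 152 and 216 CPM (1.42-fold, 1.28 to 1.57), Psmb9 at 51.5 and 66.5 CPM (1.29-fold, 1.08 to 1.55) and Psmb10 at 72.2 and 121 CPM (1.68-fold, 1.45 to 1.95). This class went from 4.98% to 40.5% of the kept cells, so its sham values rest on few cells, while the median depth was alike (6258 and 6075 UMIs).

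**Figure D2:**
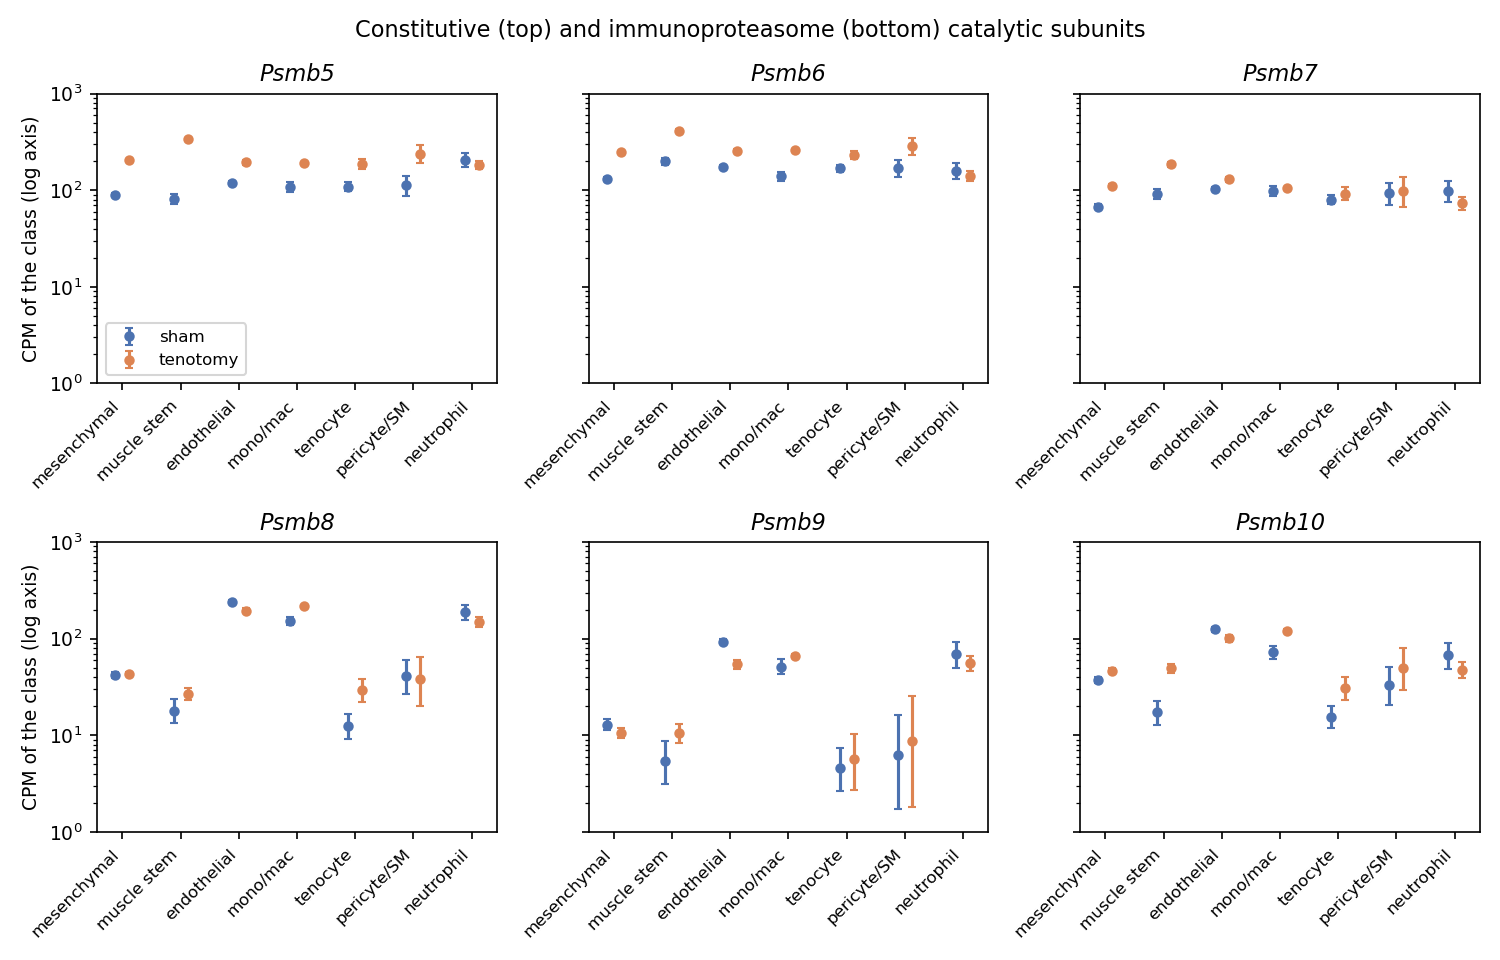
Level (CPM, log axis) of the 3 constitutive catalytic subunits and their immunoproteasome counterparts in each compared class, sham and tenotomy, 1 library each, with exact Poisson 95% intervals. Psmb5 is higher in tenotomy in 6 of 7 classes, while Psmb8 and Psmb9 are highest in sham endothelial-like cells at 239 and 92.9 CPM. The Psmb5 difference in pericyte or smooth muscle-like cells was not stable to thinning.

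The 3 smaller classes gave a mixed picture. In tenocyte-like cells, the tendon fibroblasts, 6 of the 31 constitutive genes passed 1.5-fold upwards and none downwards, beside 17.5% and 20.3% of all measured genes, with a sum of 2997 CPM in sham against 4148 in tenotomy (1.38-fold). The lid subunit Psmd8 had the highest fold (1.91), then Psmd2 (1.73) and Psmb5 (109 and 187 CPM, 1.71-fold). Psmd12 (1.07), Psmc2 (1.03) and Psmc6 (0.955) had the lowest. Psmb6 was at 1.37-fold and Psmb7 at 1.15-fold. Among the immunoproteasome genes, Psmb8 was at 12.4 and 29.3 CPM (2.36-fold, 1.56 to 3.60), Psmb9 at 4.58 and 5.64 CPM (1.23-fold, 0.503 to 2.84) and Psmb10 at 15.6 and 31.0 CPM (1.98-fold, 1.35 to 2.92). In cells thinned to 1000 UMIs the fold of Psmb10 was 0.795. The count of 6 was 3 as a mean over cells, and 3 when 1 UMI was enough for a marker.

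Of the 31 constitutive genes 10 passed 1.5-fold upwards and none downwards in pericyte or smooth muscle-like cells, beside 17.5% and 22.3% of all measured genes, with a sum of 3392 and 4827 CPM (1.42-fold). Psmb4 (2.23), Psmb5 (112 and 238 CPM, 2.13) and Psmb2 (2.04) had the highest folds, and Psmc3 (0.856), Psmd3 (0.842) and Psmc1 (0.773) the lowest. Psmb6 was at 1.69-fold and Psmb7 at 1.04-fold. The value of Psmb5 depended on which cells and UMIs were used, with 0.892 in cells thinned to 1000 UMIs and 0.995 when 1 UMI was enough for a marker. The count of 10 was 4 of 14 measured genes and 5 of 26 under these settings. Psmb8 was at 41.0 and 38.2 CPM and Psmb10 at 33.1 and 49.9 CPM, with intervals that span 1, and Psmb9 had fewer than 25 UMIs. The 10 leading genes by fold of this class included Actg2, Myh11 and Acta2 in sham only. Kcnj8, Higd1b and Abcc9 were among them in tenotomy only, and Colec11 and Lmod1 in both, so the libraries may hold different mixtures of these cells. Neutrophil or granulocyte precursor-like cells had 0 of 31 constitutive genes at least 1.5-fold higher and 0 lower, beside 18.2% and 9.11% of all measured genes, and a sum of 3698 CPM in sham against 3466 in tenotomy (0.937-fold, 0.895 to 0.981). Psmd3 (1.38), Psmd4 (1.24) and Psma2 (1.14) were highest there, and Psmb7 (0.743), Psma1 (0.735) and Psmd12 (0.721) lowest. Psmb5 was at 0.882-fold and Psmb6 at 0.883-fold, Psmb8 at 188 and 149 CPM (0.790-fold, 0.640 to 0.980), Psmb9 at 68.9 and 56.1 CPM and Psmb10 at 67.3 and 47.5 CPM. The count of 0 was not stable, since 8 of 21 measured genes passed 1.5-fold in thinned cells and 10 of 31 when 1 UMI was enough for a marker. The median depth of these cells was 4095 UMIs in sham and 2042 UMIs in tenotomy. Their 10 leading genes by fold included Fcnb, Mcpt8, Prss34 and Elane in sham only and Retnlg and S100a9 in tenotomy only. Olfm4, Ltf, Ngp, Ly6g and Itgb2l were among them in both, and whether the 2 libraries held like mixtures was not tested.

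Across classes, Psmb5 was at least 1.5-fold higher in 6 of 7, the most of any constitutive member, and Psmb3, Psmb4, Psmc4 and Psmd2 in 5. By class, 15.8% to 47.3% of all measured genes passed that fold. The Psmb5 fold in pericyte or smooth muscle-like cells lay below 1 in thinned cells, and also when 1 UMI was enough for a marker. Psmc6 passed in 0 classes and Psmd11 in 1. Of the genes named here, Psmb5, Psmb3 and Psmd2 have near-identical stretches in other annotated genes, while none was found for Psmb4, Psmc4, Psmc6 and Psmd11. Psma3 or Psma7 was the highest constitutive gene in all 14 class and library sums. The rank correlation of the 31 levels with sham mesenchymal progenitor-like cells ran from 0.652 in sham neutrophil-like to 0.955 in sham tenocyte-like cells. Each constitutive gene spanned 2.33-fold (Psmb4) to 4.69-fold (Psmd3) between its lowest and highest CPM over the 14 sums. The immunoproteasome genes spanned more, Psmb9 20.3-fold, Psmb8 19.3-fold and Psmb10 7.98-fold, each highest in sham endothelial-like and lowest in sham tenocyte-like cells. As a description over the 14 sums, which share 2 libraries, the level of Psmb8 correlated with the mean of the other immunoproteasome genes at r = 0.976, Psmb9 at 0.953 and Psmb10 at 0.889. Among the other members the activator subunits Psme1 (0.977) and Psme2 (0.796) had the patterns most like it. Among constitutive genes the lid subunit Psmd6 was most like the mean of the others (0.974), and Psmd11 (0.478) and Psmc6 (0.543) least.

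The immunoproteasome share, the UMIs of Psmb8, Psmb9 and Psmb10 among those of all 6 catalytic members, sets both forms against each other within a class. Capture differs between genes, so the share is compared between libraries and classes and is not a ratio of particles. It was 53.6% in sham and 37.8% in tenotomy endothelial-like cells, a difference of -15.7 points (-17.3 to -14.1), and 24.4% and 15.1% in mesenchymal progenitor-like cells, a difference of -9.32 points (-10.5 to -8.15). Without cells with 2 cell cycle UMIs the mesenchymal difference was -4.55 points. In monocyte/macrophage-like cells the share was 44.4% and 42.3% (-2.15 points, -4.65 to 0.327) and in muscle stem cell-like cells 9.88% and 8.53% (-1.35 points, -3.25 to 0.334), intervals that include 0. The monocyte/macrophage difference was -5.78 points in thinned cells and -0.0963 as a mean over cells. Without cells with 2 cell cycle UMIs the muscle stem cell difference was 0.540 points, and in thinned cells -3.75. Tenocyte-like cells had 8.36% and 11.5% (3.10 points, 0.721 to 5.58), though -2.08 points in thinned cells, pericyte or smooth muscle-like cells 17.7% and 13.5% (-4.18 points, -10.3 to 2.10), and neutrophil-like cells 41.2% and 38.9% (-2.23 points, -7.20 to 2.66).

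Taken pair by pair, the 3 sites differed. For β5, Psmb8 made up 66.8% and 50.1% of Psmb8 and Psmb5 UMIs in sham and tenotomy endothelial-like cells, 32.2% and 17.2% in mesenchymal progenitor-like, 18.2% and 7.38% in muscle stem cell-like and 58.7% and 53.3% in monocyte/macrophage-like cells, lower after tenotomy in each of these 4. For β1, Psmb9 made up 34.8% and 17.8% in endothelial-like, 9.01% and 4.11% in mesenchymal progenitor-like, 27.0% and 20.5% in monocyte/macrophage-like and 2.65% and 2.51% in muscle stem cell-like cells. In tenocyte-like cells the β5 share was 10.2% and 13.6% (3.35 points, -1.04 to 7.88) and the β1 share 2.65% and 2.38%. In pericyte or smooth muscle-like cells the β5 share was 26.8% and 13.8% and in neutrophil-like cells 47.7% and 44.9%. For β2 the direction differed among the classes. Psmb10 made up 54.7% and 43.9% in endothelial-like and 35.8% and 29.6% in mesenchymal progenitor-like cells. In monocyte/macrophage-like cells it made up 42.2% and 53.7% (11.4 points, 6.62 to 16.1) and in muscle stem cell-like cells 15.9% and 21.1% (5.16 points, 0.379 to 9.26). The tenocyte-like values were 16.3% and 25.2% (8.89 points, 2.13 to 16.0).

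**Figure D3:**
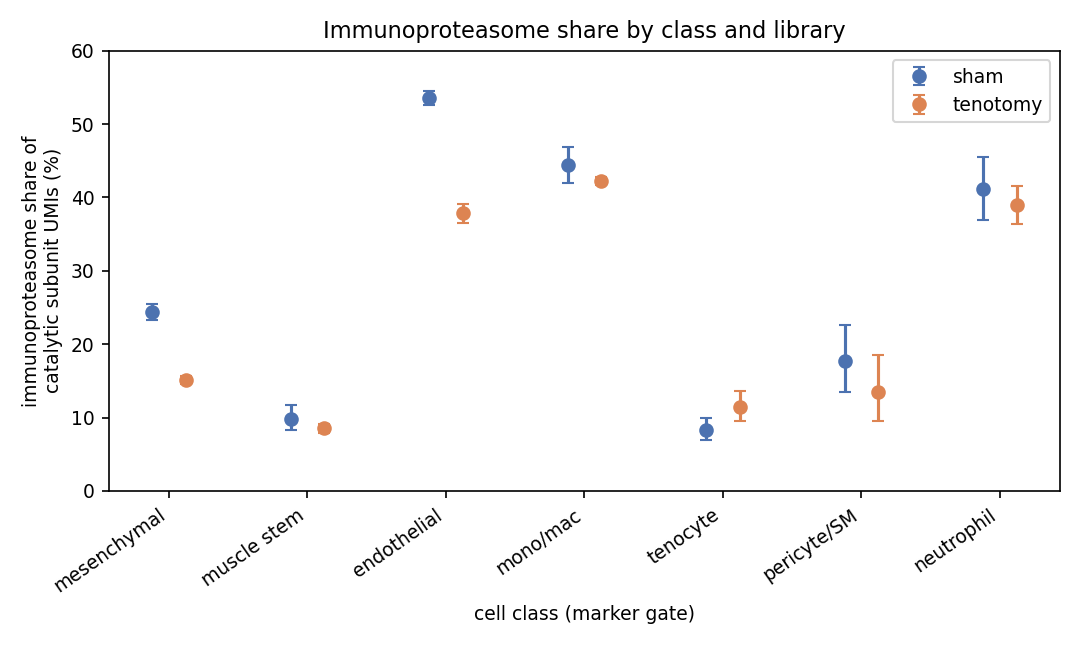
Immunoproteasome share (percent of the UMIs of 6 catalytic members) per class in sham and tenotomy, 1 library each, with exact binomial 95% intervals. The share is lower after tenotomy by 15.7 points in endothelial-like and 9.32 points in mesenchymal progenitor-like cells, while the monocyte/macrophage-like points lie close together at 44.4% and 42.3%.

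Because the classes differ in immunoproteasome level, the library totals mix level and cell makeup. Endothelial-like cells gave 59.0% of all immunoproteasome UMIs of kept sham cells (from 28.1% of all UMIs) and 8.88% in tenotomy (from 7.09%), while monocyte/macrophage-like cells gave 7.44% (from 5.88%) and 46.6% (from 32.3%). Dendritic-like cells gave 10.0% of the tenotomy immunoproteasome UMIs from 2.93% of all UMIs. Over the 7 compared classes the summed immunoproteasome level was 1.11-fold higher in tenotomy, and 0.923-fold when the tenotomy classes were weighted by their sham shares of UMIs. The same weighting changed Psmb9 from 0.905 to 0.708 and Psmb8 from 1.11 to 0.927. It left the constitutive sum at 1.67 (1.65 unweighted) and Psmb5 at 2.03 (2.04).

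**Figure D4:**
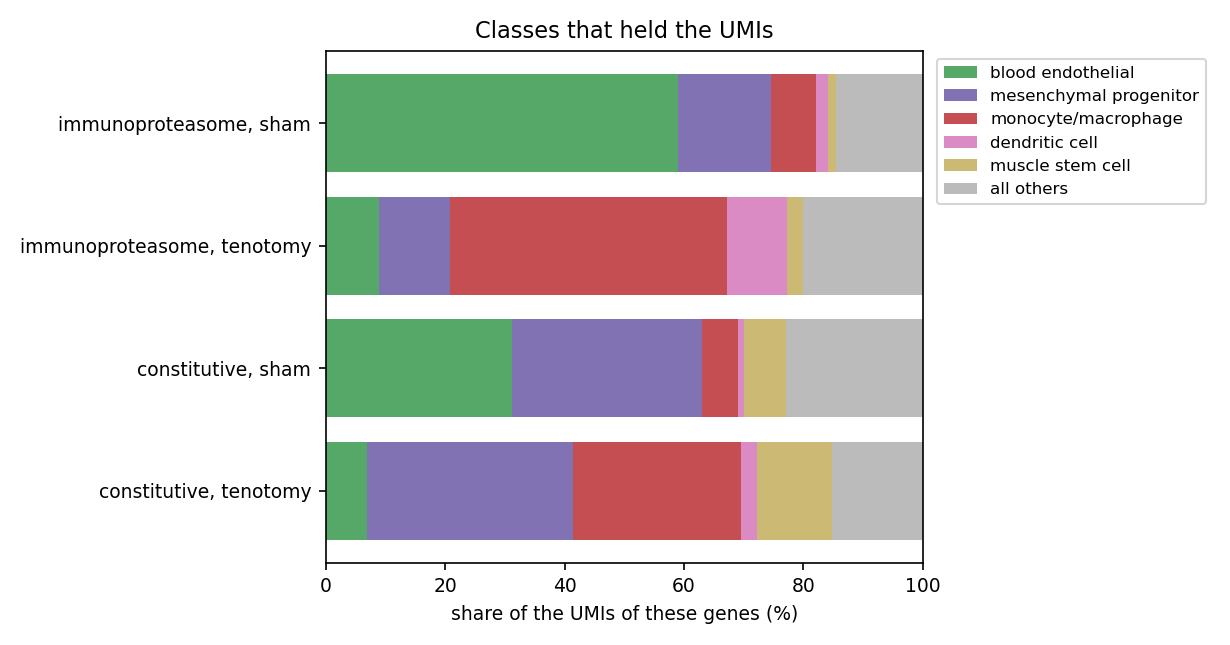
Percent of the immunoproteasome and the constitutive subunit UMIs of each library that came from each cell class (all others in grey), for kept cells of sham and tenotomy. Endothelial-like cells make up 59.0% of the sham immunoproteasome bar and 8.88% of the tenotomy bar, and monocyte/macrophage-like cells 7.44% and 46.6%.

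The activator subunits kept no single order over the classes. Psme1 and Psme2 form the PA28 alpha-beta ring that opens the core and is induced by interferon gamma, whereas Psme3 (PA28 gamma) and Psme4 (PA200) are nuclear activators. In endothelial-like cells Psme1 was at 240 CPM in sham against 224 in tenotomy (0.934-fold, 0.876 to 0.995) and Psme2 at 177 and 143 CPM (0.806-fold, 0.746 to 0.872), while Psme3 was at 14.9 and 26.2 CPM (1.76-fold, 1.42 to 2.18) and Psme4 at 1.31-fold. In mesenchymal progenitor-like cells Psme3 also had the highest fold of the 4, at 21.8 and 38.0 CPM (1.75-fold, 1.55 to 1.98), beside Psme1 at 1.13, Psme2 at 1.33 and Psme4 at 1.33. In monocyte/macrophage-like cells Psme2 had it, at 78.3 and 133 CPM (1.70-fold, 1.47 to 1.96), beside Psme1 at 1.34, Psme3 at 1.35 and Psme4 at 1.15. Muscle stem cell-like cells had 1.53 for Psme1, 1.60 for Psme2, 1.42 for Psme3 and 1.38 for Psme4, and tenocyte-like cells 1.52, 1.58, 1.47 and 1.41 in the same order, though Psme1 was at 0.618 in thinned tenocyte-like cells. In pericyte or smooth muscle-like cells the folds were 1.16 for Psme1, 2.12 for Psme2, 0.658 for Psme3 (under 25 UMIs) and 0.622 for Psme4, and in neutrophil-like cells 0.978, 1.17, 1.29 and 0.969. Values of Psme2 are uncertain, since Psme2b, which is at least 95% identical over the last 500 bases and had 943 UMIs, can share its reads. Psme1 and Psme2 made up 87.6% of the UMIs of the 4 activators in sham and 81.3% in tenotomy endothelial-like cells.

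The assembly chaperones and the inhibitor Psmf1 were low in every class. Of the 12 accessory members, 4 were at least 1.5-fold higher in mesenchymal progenitor-like, 9 in muscle stem cell-like, 2 in endothelial-like and 3 in monocyte/macrophage-like cells, and none was 1.5-fold lower in these 4. Of all measured genes 25.1%, 47.3%, 19.4% and 15.8% were that much higher. Psmd5, a chaperone of the 19S base, had 8 UMIs in sham and 267 in tenotomy muscle stem cell-like cells, 2.71 and 35.3 CPM (13.0-fold, 6.51 to 30.5), the highest fold of any member there. In endothelial-like cells it was at 15.8 and 11.9 CPM (0.752-fold, 0.568 to 0.986). Psmg3, a chaperone of the 20S core, was at 5.76 and 33.3 CPM in muscle stem cell-like cells (5.78-fold, 3.54 to 10.1) and at 2.23-fold in mesenchymal progenitor-like cells. Psmd10 (gankyrin, a 19S chaperone) was at 4.51-fold in muscle stem cell-like and 2.80-fold in mesenchymal progenitor-like cells. In monocyte/macrophage-like cells Psmd9, the third of these chaperones, was at 15.7 and 29.5 CPM (1.87-fold, 1.37 to 2.63), and Psmg1 was lowest at 0.701-fold. Psma8 stayed under 1.5 CPM in all 14 sums.

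Cells were also compared within each library by whether they carried a UMI of 18 interferon-response genes, after thinning to 1000 UMIs so that depth did not set the split. In tenotomy mesenchymal progenitor-like cells the 483 carriers had 205 CPM of the 3 immunoproteasome genes and the 1246 others 81.1 CPM, 2.53-fold (1.90 to 3.37), while in sham cells the ratio was 1.10 (0.807 to 1.48). The ratio was 3.57 (1.31 to 9.47) in sham and 2.96 (1.22 to 6.76) in tenotomy muscle stem cell-like cells, from 20 and 28 UMIs in all. In endothelial-like cells it was 1.34 (1.13 to 1.60) and 1.53 (1.24 to 1.91), and in monocyte/macrophage-like cells 0.828 (0.531 to 1.27) and 1.77 (1.60 to 1.95). The constitutive sum had ratios of 0.858 to 1.03 over these classes, below 1 in tenotomy mesenchymal progenitor-like cells at 0.858 (0.816 to 0.901) and in endothelial-like cells at 0.924 (0.877 to 0.975) in sham and 0.870 (0.827 to 0.915) in tenotomy. In the split by a cell cycle UMI, the constitutive sum was 1.29-fold higher in carriers among tenotomy mesenchymal progenitor-like cells (1.22 to 1.35), 1.07-fold in muscle stem cell-like (0.991 to 1.15), 1.15-fold in endothelial-like (1.05 to 1.27), 1.06-fold in monocyte/macrophage-like (1.02 to 1.12) and 1.96-fold in neutrophil or granulocyte precursor-like cells (1.71 to 2.24). In sham endothelial-like cells it was at 0.954 (0.828 to 1.09). The immunoproteasome sum in tenotomy mesenchymal progenitor-like carriers was 0.896-fold (0.604 to 1.30).

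**Figure D5:**
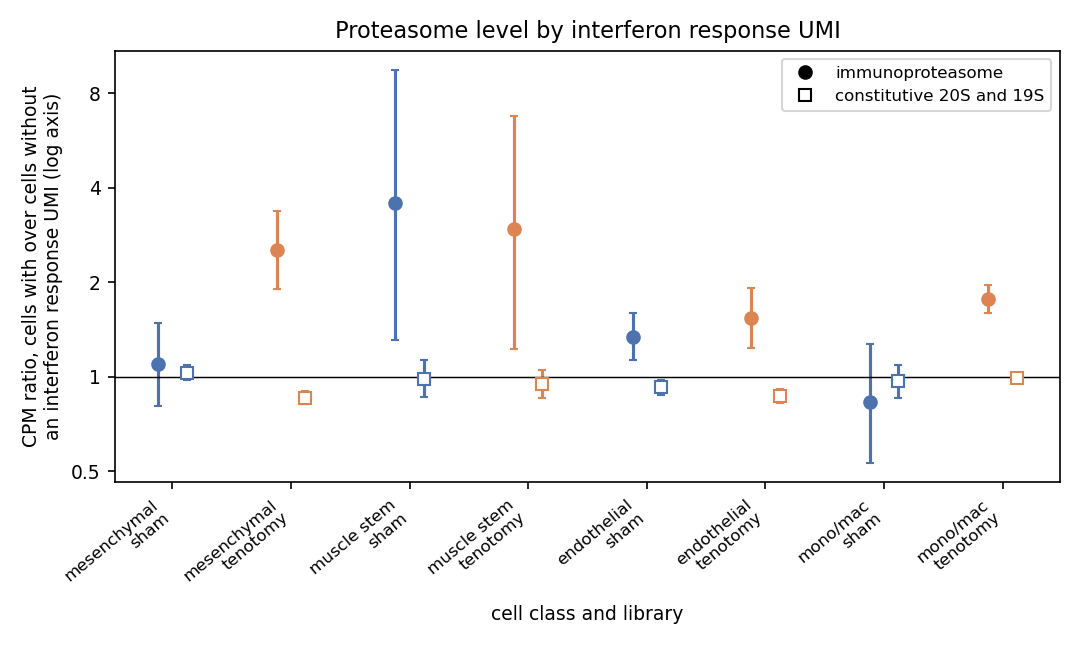
Ratio of CPM in cells with at least 1 interferon-response UMI to cells without, for the immunoproteasome and the constitutive subunits, per class and library, in cells thinned to 1000 UMIs, with exact 95% intervals on a log axis. The constitutive ratios of the 4 largest classes lie between 0.858 and 1.03, and the immunoproteasome ratio reaches 2.53 in tenotomy mesenchymal progenitor-like cells and 1.77 in tenotomy monocyte/macrophage-like cells.

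Counted by cells, an immunoproteasome UMI was found in 35.2% of sham and 27.1% of tenotomy endothelial-like cells at 1000 UMIs (70.1% and 60.6% unthinned), and in 24.2% and 29.7% of monocyte/macrophage-like cells (69.7% and 77.0%). The shares were 8.91% and 10.2% in mesenchymal progenitor-like cells (47.8% and 63.1%), 4.20% and 6.13% in muscle stem cell-like cells (22.1% and 58.4%) and 3.25% and 4.02% in tenocyte-like cells (23.3% and 29.6%). Erythroid-like tenotomy cells, which should carry little, had 2.56% at 1000 UMIs (0.532% to 7.31%; 9.32% unthinned) at a median of 4013 UMIs. The pericyte or smooth muscle-like shares were 4.38% and 6.98% (20.1% and 22.7% unthinned). Of the 7 compared classes, all shares of the muscle stem cell-like, tenocyte-like and pericyte or smooth muscle-like cells lie within that interval, so free RNA in these 3 was not told apart from expression. The sham library had 1 erythroid-like cell, so its own level could not be measured. Dendritic-like tenotomy cells had the highest share, 56.0%, and 639 CPM of Psmb8, 206 CPM of Psmb9 and 115 CPM of Psmb10 in 300 cells.

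Genes that work with the proteasome were read from lists chosen with earlier results of these data known. Each count below stands against all measured genes of the class, of which 25.1% were at least 1.5-fold higher and 30.6% lower in mesenchymal progenitor-like, 47.3% and 18.9% in muscle stem cell-like, 19.4% and 19.1% in endothelial-like and 15.8% and 25.5% in monocyte/macrophage-like cells. Of 9 further proteasome genes, 3 passed 1.5-fold upwards and 1 downwards in mesenchymal progenitor-like cells, 6 and 1 in muscle stem cell-like, 1 and 0 in endothelial-like and 1 and 0 in monocyte/macrophage-like cells, with medians of 1.35, 2.11, 1.21 and 1.21. The median of all genes was 0.951, 1.41, 0.987 and 0.958. Pomp, the chaperone that matures the core, was at 126 CPM in sham against 223 in tenotomy mesenchymal progenitor-like cells (1.78-fold), and Adrm1, a ubiquitin receptor of the cap, at 39.2 and 82.3 CPM (2.10-fold). Ecpas, which binds the 26S particle, was lowest there at 0.659, with Akirin2 at 1.20, and Ecpas was also lowest in muscle stem cell-like cells at 0.518, with Sem1 at 1.42. Ublcp1 (4.65) and Uchl5 (3.94) were highest in muscle stem cell-like cells. In endothelial-like cells Pomp (1.67) and Uchl5 (1.36) were highest and Ublcp1 and Akirin2 (1.02) lowest, and in monocyte/macrophage-like cells Adrm1 (1.60) and Pomp (1.33) were highest and Ecpas and Ublcp1 lowest.

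Of the transcription factors and other regulators of proteasome genes, 4 of 12 were at least 1.5-fold higher and 4 lower in mesenchymal progenitor-like, 2 and 5 of 10 in muscle stem cell-like, 2 and 5 of 11 in endothelial-like and 4 and 3 of 11 in monocyte/macrophage-like cells, where all genes had 25.1% and 30.6%, 47.3% and 18.9%, 19.4% and 19.1%, and 15.8% and 25.5%. Irf1, an interferon-response factor of immunoproteasome genes, was lowest in mesenchymal progenitor-like cells (298 CPM in sham against 22.8 in tenotomy, 0.0766-fold), endothelial-like cells (834 and 294 CPM, 0.352-fold) and monocyte/macrophage-like cells (0.320), with Irf9 (0.303), Socs1 (0.443) and Ngly1 (0.536) next to it. Nlrc5, the class I transactivator, was highest in mesenchymal progenitor-like (4.44) and monocyte/macrophage-like cells (2.27), with Vcp (1.93) next in the former, and Vcp (1.81) and Nlrc5 (1.53) led in endothelial-like cells. In muscle stem cell-like cells Vcp (1.90) and Ngly1 (1.71) were highest and Socs1 (0.218) and Irf8 (0.110) lowest. Vcp, the segregase that delivers substrates, was thus at least 1.5-fold higher in all 4 of these classes.

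Of 12 ubiquitin and shuttle genes, 5 passed 1.5-fold upwards and 3 downwards in mesenchymal progenitor-like, 2 and 3 in muscle stem cell-like, 3 and 2 in endothelial-like and 2 and 2 in monocyte/macrophage-like cells, the muscle stem cell-like count of 2 higher lying below the 47.3% of all genes. Ubqln2, a shuttle factor, was at 0.577 in mesenchymal progenitor-like cells, and the polyubiquitin gene Ubb at 0.409 in muscle stem cell-like and 0.546 in monocyte/macrophage-like cells. The highest were Rps27a and Nploc4 (1.63 each) in mesenchymal progenitor-like, Ubqln4 (1.62) and Uba1 (1.56) in muscle stem cell-like, Uba1 (1.86) and Rps27a (1.78) in endothelial-like and Nploc4 (1.95) and Uba1 (1.64) in monocyte/macrophage-like cells. Of the MHC class I presentation genes, 4 of 16 were higher and 10 lower in mesenchymal progenitor-like cells (median 0.579), 1 and 8 of 15 in muscle stem cell-like (0.629), 2 and 10 of 16 in endothelial-like (0.603) and 2 and 4 of 16 in monocyte/macrophage-like cells (1.07). Lower calls made up 30.6%, 18.9%, 19.1% and 25.5% of all genes in these classes, less than in the list in the first 3. H2-Q4 was lowest in all 4 classes, at 0.150, 0.112, 0.275 and 0.300, with H2-T23 (0.252), H2-K1 (0.245) and H2-Q6 (0.296 in endothelial-like cells) beside it. Calr (2.92) and Pdia3 (2.09), chaperones of class I loading, were highest in mesenchymal progenitor-like cells, Canx (1.78) and H2-Q7 (1.17) in muscle stem cell-like, Canx (1.97) and Calr (1.54) in endothelial-like, and Tap1 (1.87) and Erap1 (1.51) in monocyte/macrophage-like cells.

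The interferon-response list of 18 genes had 6 members at least 1.5-fold higher and 8 lower in mesenchymal progenitor-like cells (median 0.768), 3 and 10 of 15 in muscle stem cell-like (0.516), 3 and 9 in endothelial-like (0.675) and 6 and 6 in monocyte/macrophage-like cells (0.831), beside higher shares of 25.1%, 47.3%, 19.4% and 15.8% and lower shares of 30.6%, 18.9%, 19.1% and 25.5% over all genes. Oas1a (20.2) and Ifi44 (8.79) were highest and Gbp4 (0.326) and Irgm1 (0.184) lowest in mesenchymal progenitor-like cells. In muscle stem cell-like cells Gbp4 (4.87, 1.22 to 42.5, from 2 sham and 25 tenotomy UMIs) and Ifit2 (2.73, 1.29 to 6.63, from 8 and 56) were highest. Irgm1 (0.181) and Cxcl9 (0.0249, from 47 and 3 UMIs) were lowest there. In endothelial-like cells Ifi44 (2.22) and Oas1a (2.21) stood against Iigp1 (0.362) and Isg15 (0.305). In monocyte/macrophage-like cells Ifi44 (5.48, from 2 and 121 UMIs) and Oas1a (3.14) stood against Gbp4 (0.221) and Iigp1 (0.0765). Of the ubiquitin ligases known from muscle atrophy, 5 of 8 measured were at least 1.5-fold higher in muscle stem cell-like cells, where 47.3% of all measured genes were. Among these 5, Trim63 counted as measured through its 51 tenotomy UMIs alone, so its call adds no information. There Fbxo32 (atrogin-1) was at 5.76 and 34.6 CPM (6.01-fold) and Trim63 (MuRF1) had no UMI in sham, with 6.74 CPM in tenotomy, while Stub1 was at 2.68 and Fbxo30 at 0.422. The counts were 1 higher and 1 lower of 7 in mesenchymal progenitor-like (Stub1 1.77 and Mdm2 1.34, Fbxo32 0.816 and Fbxo30 0.508), 1 and 0 in endothelial-like (Cblb 1.97) and 2 and 0 in monocyte/macrophage-like cells (Fbxo32 7.43 and Mdm2 2.44, Fbxo30 0.748).

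A list of 15 immediate early and stress genes, which respond to tissue digestion, moved with the library. Of its members 14 were at least 1.5-fold lower in tenotomy mesenchymal progenitor-like, 15 in muscle stem cell-like, 13 in endothelial-like, 14 in monocyte/macrophage-like, 9 in tenocyte-like, 12 in pericyte or smooth muscle-like and 4 in neutrophil-like cells, with summed folds of 0.256, 0.142, 0.382, 0.288, 0.529, 0.474 and 1.09. Of all measured genes 30.6%, 18.9%, 19.1%, 25.5%, 20.3%, 22.3% and 9.11% were that much lower in the same order. Its part in the proteasome results was not tested. Near-identical stretches in transcripts of other annotated genes (95% identity over at least 100 of the last 500 bases) were found for 8 of the 47 members, Psma4, Psma5, Psmb3, Psmb5, Psmc1, Psmd1, Psmd2 and Psme2. Whether those other genes overlap the member itself was not checked. Values of these 8 members are uncertain to the extent that reads were shared or dropped, which was not tested.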

How the data were processed

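The authors deposited UMI counts per gene and cell barcode for 1 sham and 1 tenotomy library. Per the submitters' processing notes, Cell Ranger 4.0.0 and the mm10 genome were used, while the sources used here do not give the annotation. Symbols were matched to 32158 of 32285 Ensembl IDs. Cells with under 300 genes, under 500 UMIs or over 10% mitochondrial UMIs were removed. Scrublet (scanpy 1.11.5) doublet scores above 0.212 were removed (190 sham and 320 tenotomy cells), a limit that its automatic choice set in the tenotomy library and that was used in both. A cell joined a class with at least 3 of its markers, each at no less than the library's own share of UMIs. No other class could have more than 0.5 times as many, with an exception for related classes. There, if the only such other class also had at least 3 markers, the cell joined the narrower class. The pairs were tenocyte and mesenchymal progenitor, dendritic or neutrophil and monocyte/macrophage, and lymphatic and blood endothelial. The limit by library share was chosen after gate counts were seen. Counts were summed per class, and folds carry exact conditional binomial intervals, levels exact Poisson, shares Clopper-Pearson and differences of shares Newcombe intervals, all at 95%. The fold and its interval were tried on simulated Poisson class totals. These held no variation between cells or libraries, so the trial does not cover such variation. The members, lists and tests were chosen with earlier results of these data known. Named genes were the catalytic and activator members, the 3 highest and 3 lowest constitutive folds a class, and the 2 highest and 2 lowest of each list. Some list genes that this rule names are not reported here.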

Additional observations from a re-analysis of the deposited data

Results flagged for a closer look

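The fold of Psmb9 lay above 1 in muscle stem cell-like cells, at 1.95 (1.13 to 3.57), and below 1 in blood endothelial-like cells, at 0.589 (0.521 to 0.665). The immunoproteasome share was higher after tenotomy in tenocyte-like cells, by 3.10 points (0.721 to 5.58), and lower in mesenchymal progenitor-like cells, by -9.32 points, and in blood endothelial-like cells, by -15.7 points. With 1 library a group these differences between classes were not tested. In cells thinned to 1000 UMIs the tenocyte-like difference was -2.08 points and Psmb9 had no tenotomy UMI in muscle stem cell-like cells. In both of these classes free RNA was not told apart from expression of the immunoproteasome genes.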

How the results depend on the processing

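No paired analysis was possible because each group is a single library of pooled muscles, and leaving out a library would leave no comparison. Of 80 alternative values for the 4 main classes' counts and shares, 68 stayed within the set limits and 12 moved. Counts of constitutive genes at least 1.5-fold higher ranged from 21 to 29 in mesenchymal progenitor-like, 21 to 29 in muscle stem cell-like, 3 to 20 in endothelial-like and 7 to 15 in monocyte/macrophage-like cells. The share of all measured genes past that fold was not computed in the alternative settings. The endothelial-like count was 3 as a mean over cells, 4 without cells with 2 cell cycle UMIs and 20 with mitochondrial and ribosomal protein genes out of the total. The monocyte/macrophage-like count was 7 with at most 5% mitochondrial UMIs. In cells thinned to 1000 UMIs, the difference in immunoproteasome share was -6.35 points in mesenchymal progenitor-like, -3.75 in muscle stem cell-like and -5.78 in monocyte/macrophage-like cells. As a mean over cells it was -5.48 in mesenchymal progenitor-like and -13.7 in endothelial-like cells. Without cells with 2 cell cycle UMIs it was -4.55 in mesenchymal progenitor-like, 0.540 in muscle stem cell-like and -14.0 in endothelial-like cells. Of 838 alternative folds of single members, 740 stayed, 93 moved and 5 reversed. In thinned cells the reversed folds were 0 for Psmb9 in muscle stem cell-like cells, 0.795 for Psmb10 and 0.618 for Psme1 in tenocyte-like cells and 0.892 for Psmb5 in pericyte or smooth muscle-like cells. Psmb5 in the last class was also at 0.995 when 1 UMI counted as a marker, a setting added after the data were seen. Thinning keeps few UMIs of such members. The cause of the reversals and of the other shifts was not tested. Low counts limit Psmb9, with 5.43 CPM in sham muscle stem cell-like and 4.58 CPM in sham tenocyte-like cells.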
